A study of Mus musculus with 8 samples.

Results

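The chromosome 17 stretch that holds Cyp1b1 was examined for binding of Foxk1, a forkhead box transcription factor. Its members are the deposited peaks with a summit between 80.00 and 80.30 Mb on the mm9 assembly, 25 of 28933 in all. They were chosen by summit position, in a stretch selected on the known number of its peaks in this same list. Cyp1b1 lies near 80.11 Mb, a position that came with the definition of the stretch and was not checked against an mm9 annotation. Chromatin came from untreated mouse embryonic fibroblasts (MEFs), connective-tissue cells cultured from embryos, grown in DMEM. There were 3 libraries precipitated with Foxk1 antibody, 3 with IgG, an antibody control without a chosen target, and 2 of input, chromatin taken without antibody. The labels give neither genotype nor strain, and do not say whether libraries came from separate cultures. The data analysed were a single peak list, whose header calls it Foxk1 versus input, with signal and q-value per peak and nothing per library or for IgG. No value below therefore carries a replicate error, depth is unknown, and binding of Foxk1 cannot be told apart from enrichment that IgG would also give. Peak numbers and signal values are given as a description, and none was tested.

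Cyp1b1 encodes a cytochrome P450, an enzyme of the endoplasmic reticulum that oxidises polycyclic aromatic hydrocarbons and oestradiol. It is a textbook target of the aryl hydrocarbon receptor (Ahr), which with its partner Arnt binds response elements with the core GCGTG. Unlike its relative Cyp1a1, a largely inducible gene, Cyp1b1 is known for its expression in fibroblasts and other mesenchymal cells. Foxk1 belongs to the forkhead family, whose members bind DNA through a winged-helix domain at sites related to TAAACA. In RefSeq's gene order on GRCm38.p6, the protein-coding neighbour of Cyp1b1 at lower coordinates is Rmdn2, a regulator of microtubule dynamics, and then Cdc42ep3, an effector of the GTPase Cdc42 that acts on the actin cytoskeleton. On the other side come Atl2, an atlastin that shapes the endoplasmic reticulum, and Hnrnpll, an RNA-binding regulator of splicing. Further out follow Qpct, Prkd3 and Ndufaf7 on the side of Rmdn2, and 4933407O12Rik, Galm and Srsf7 on the side of Atl2. That assembly is not the one of the peaks, so its gene limits were not set against them and no peak is assigned to a gene.

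The promoter of Cyp1b1 is shown because it belongs to the gene that names the stretch and can be read for forkhead letters. RefSeq places it on the minus strand of GRCm38.p6 at chr17:79715012-79715311, coordinates that cannot be set beside the mm9 ones used for peaks. It runs 5′ to 3′ from 250 bases before the gene's start to 50 bases after it. Capitals mark the match to the forkhead core AAACA, read on the opposite strand, and the match to the Ahr element core GCGTG, also read on the opposite strand.
Cyp1b1 promoter: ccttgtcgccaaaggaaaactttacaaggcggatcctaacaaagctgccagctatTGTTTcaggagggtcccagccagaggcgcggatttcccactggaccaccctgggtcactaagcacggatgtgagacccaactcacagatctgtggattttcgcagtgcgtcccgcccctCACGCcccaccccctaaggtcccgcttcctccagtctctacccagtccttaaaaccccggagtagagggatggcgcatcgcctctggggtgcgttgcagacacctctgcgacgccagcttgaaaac

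Both strands were searched. The forkhead letters TAAACA did not occur in this window, and they occurred in 13.4% of the 32851 promoter windows of the same length. The longer GTAAACA was absent as well, against a share of 3.65% of promoters. The short core AAACA, which is contained in both, occurred 1 time, with its first printed base 195 bases before the gene's start. Of all promoters, 50.5% hold it. The GCGTG match began 76 bases before the start, and 32.4% of promoters hold these letters. The AP-1 letters TGANTCA were absent, against 7.81% of promoters. The window was 58.3% G and C and held 16 CG steps, against medians of 52.7% and 7 over all promoters. Fewer CG steps occurred in 67.0% of promoters, and the upper quartile for G and C was 61.7%. Matches and their absence concern these letters in this window only.

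Foxk1 peaks in the Cyp1b1 stretch were many and mostly of moderate strength. The authors' signal value, a score of unstated scale, ran from 12.3 to 85.96 with a median of 21.6 and quartiles of 16.6 and 27.1. Over the whole list the median was 17.8, the quartiles were 13.5 and 27.6, and values ran from 11.3 to 391. A signal value at or above the list median was reached by 17 of the 25 members (68.0%), against 50% of all peaks, as the median sets it. In the 2 Mb around the stretch, 33 of 55 peaks (60.0%) reached it. A signal value of 50 was reached by 1 of 25 members (4%), against 7.97% of all peaks. The lowest q-value of the list, 0.00014, was given to 2 members (8%) and to 12.3% of all peaks. Counts of 1 and 2 members are too small to set these 2 shares apart from those of the list. A q-value of at most 0.001 was met by 17 members (68.0%), by 35 of the 55 surrounding peaks (63.6%) and by 51.3% of the list.

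**Figure D1:**
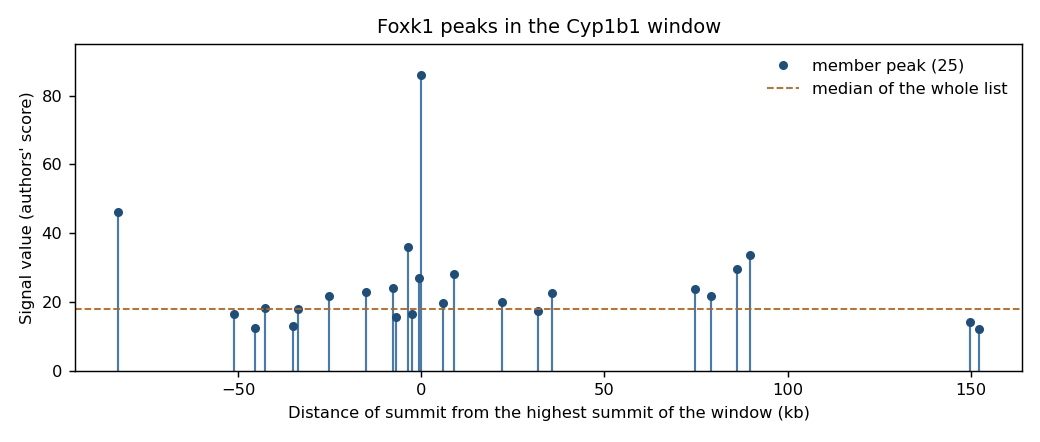
Signal value (authors' score, vertical axis) of each of the 25 peaks of the Cyp1b1 stretch against the distance of its summit from the highest summit (kb, horizontal axis); the dashed line is the median of the whole list, 17.8. The highest peak, at 85.96, stands among close neighbours, and the next, at 46.1, stands 82.7 kb away from it.

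The highest member lay from 80145401 to 80145860, with its summit at 80145631 and a signal value of 85.96. It ranked 660 of 28933 in the list and 39 on chromosome 17, and 97.7% of all peaks had a lower value. It alone made up 13.9% of the summed signal of the stretch, which was 617. The next member, from 80062674 to 80063133, had a signal value of 46.1 and rank 2717. These were the pair with the lowest q-value, and the remaining 23 members all had signal values under 36.

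The highest peak stood in the tightest group of the stretch. Within 10 kb of its summit on either side lay 8 members, itself included, over 16.6 kb, and they held 41.0% of the summed signal. This group was drawn around the highest peak, which alone gave 13.9% of the summed signal of the stretch. The closest companion of the highest peak, 684 bp away at 80144947, had a signal value of 27.1. Next came summits at 80143065 with 16.4 and at 80142053 with 35.9, the third highest member, which stood 1012 bp apart from each other. Signal values thus differed several-fold over a few kb. A pair 673 bp apart, the closest of the stretch, had signal values of 24.1 at 80137951 and 15.6 at 80138624. On the other side of the highest peak the summits at 80151621 and 80154562 had signal values of 19.8 and 28.1. All 8 members of this group lay between 27.95 and 44.6 kb from the 80.11 Mb position, on its higher-coordinate side.

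Close to the 80.11 Mb position itself the peaks were at or below the middle of the list. Of the 4 summits within 10 kb of it, 2 lay just above the list median of 17.8 and 2 below it, and their own median was 15.4. The nearest, at 80110548, had a signal value of 12.9 and stood 0.547 kb from the position. Its neighbour at 80112110 had 17.95. The other two, at 80100364 and 80102981, had 12.5 and 18.2. Together these 4 gave 9.97% of the summed signal. The position is known to the nearest 0.01 Mb only, so whether any of the 4 lies in the gene or at its start was not determined.

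Most members of the stretch, the tight group included, lay on the higher-coordinate side of 80.11 Mb. That side held 21 members with a median of 21.9, and the lower side held 4 with a median of 17.4; 0.11 Mb of the stretch lies below the position and 0.19 Mb above. Between the position and the tight group stood summits at 80120560 and 80130485, with signal values of 21.6 and 22.9. Beyond that group came 3 summits at 80167659, 80177519 and 80181220, with 19.9, 17.5 and 22.6. These 5 peaks ranged only from 17.5 to 22.9 and stood 3.70 to 9.86 kb from their nearest summit.

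A separate group of 4 peaks followed after an interval of 39.2 kb. Its summits lay at 80220414, 80224630, 80231894 and 80235441, over 15.03 kb, with signal values of 23.8, 21.9, 29.5 and 33.7. Its median of 26.7 was above the 19.8 of the 15 peaks that were linked by gaps of less than 10 kb from 80094607 to 80154562. It was close to the 25.6 of the 8 members within 10 kb of the highest summit. After a further 60.1 kb, the longest interval between neighbouring members, came a pair at 80295525 and 80297985 with 14.2 and 12.3 (12.3 was the lowest value of all members). The member not yet named, at 80094607, had a signal value of 16.6.

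The spacing between members was short, but peaks did not overlap. The 24 intervals between neighbouring summits had a median of 4.99 kb and ran from 673 bp to 60.1 kb, and 5 were under 2000 bp. All peaks of the list were 460 bp wide, and no member overlapped another. Overlap was rare elsewhere too, at 5.18% of all peaks and 6 of the 55 surrounding peaks (10.9%). With 25 members, its absence cannot be set apart from shares that low. Of the 25 members, 20 (80.0%) had another summit within 5 kb, against 30 of 55 peaks (54.5%) in the 2 Mb around the stretch and 39.6% of all peaks. For a stretch selected with its dense peaks in view, this share restates the density. Closer neighbours were about as frequent as around it. Of the members, 8 (32.0%) had another summit within 2000 bp, against 18 of the 55 surrounding peaks (32.7%) and 25.8% of all peaks.

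Order by q-value followed order by signal only roughly. The third highest member by signal, at 80142053 with 35.9, had a q-value of 0.000553 and came 10th by q. The member at 80144947 with a signal value of 27.1 had a lower q-value, 0.000467, and came 3rd. Of the 4 members with a signal value under 15, the highest q-value was 0.00503, at 80297985.

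Peaks continued beyond both limits of the stretch. The first peak inside the lower limit, with a signal value of 46.1, stood 62.9 kb from the limit, and no member lay before it. Just outside that limit stood a peak with 42.4 at 79998713, only 1.29 kb away. At the upper limit the last peak inside, with 12.3, stood 2.02 kb from the limit, and the first outside, at 80332171 with 95.6, stood 32.2 kb away. The peak outside was thus stronger than every member. Between 80062904 and 80235441, 23 members followed each other with no gap of 50 kb or more.

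The stretch carried 83.3 peaks per Mb, against 27.5 per Mb in the 2 Mb around it, taken as 1 Mb on each side. The ratio was 3.03. Of the 55 surrounding peaks, 35 lay on the lower-coordinate side and 20 on the higher side. Counted in 100 kb, the stretch held 2, 17 and 6 peaks, and the 20 surrounding intervals held a median of 3 and at most 11, with 4 of them empty. The interval with 11 adjoins the lower limit, and the 100 kb past the upper limit held 1 peak. Over the rest of chromosome 17 the density was 13.1 peaks per Mb, and the ratio to it was 6.34.

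**Figure D2:**
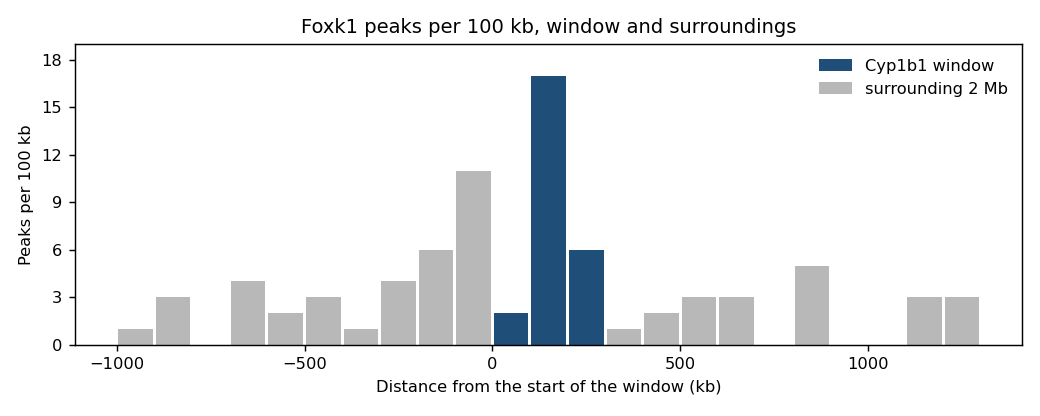
Number of Foxk1 peaks per 100 kb (vertical axis) against distance from the start of the Cyp1b1 stretch (kb, horizontal axis), with the stretch in dark blue and the 1 Mb on each side in grey. The middle 100 kb of the stretch holds 17 peaks, and the fullest surrounding interval holds 11.

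How signal values in the stretch stood to those around it depended on the peaks and surroundings taken. The median was 21.6 in the stretch and 20.5 in the surrounding 2 Mb, a difference of 1.13, and the quartiles around it were 15.2 and 30.03. With 2 Mb on each side, the surrounding median was 18.2 and the difference 3.45. A signal value of 50 was reached by 1 of 25 members (4%), against 5 of the 55 surrounding peaks (9.09%). Among peaks at or above the list median the order turned, with a median of 23.8 for 17 members and 28.8 for 33 surrounding peaks, a difference of -5.04. The highest surrounding peaks were stronger than any member, at 79842102 with a signal value of 136 on the lower side and at 81172014 with 147 on the higher side. Summed signal per Mb was 2057 in the stretch and 821 around it.

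**Figure D3:**
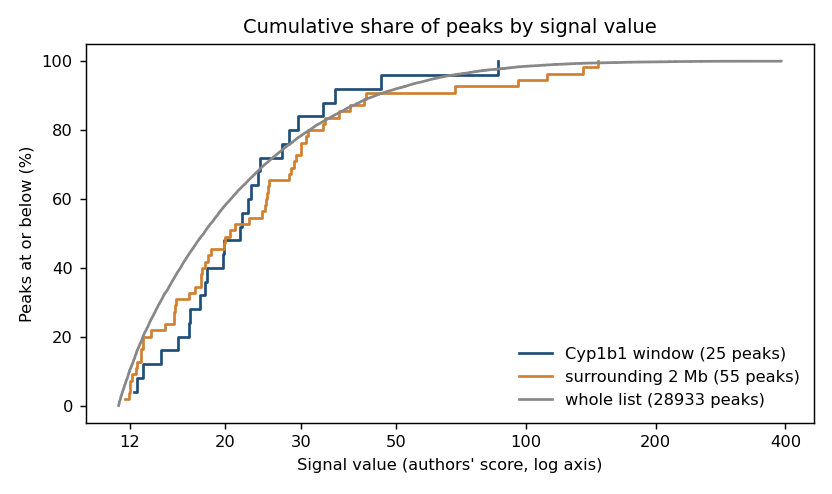
Cumulative share of peaks (%, vertical axis) by signal value (authors' score, log horizontal axis) in the Cyp1b1 stretch, the surrounding 2 Mb and the whole list. The stretch has a smaller share of weak peaks than the list, with a median of 21.6 against 17.8, and 1 peak at 50 or more. The surrounding 2 Mb has a median of 20.5. There 40.0% of peaks lie under the list median, against 32.0% in the stretch.

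Set beside 300 kb windows tiled over chromosomes 1 to 19 and X, leaving out the tiles that overlap it, the Cyp1b1 stretch ranked 10 by number of peaks, tied with 1 window. The median of these 8793 windows was 2 peaks, the 99th percentile was 18 and the highest was 32. On chromosome 17 no other such window held more. By summed signal it ranked 30 in the genome and 4 on chromosome 17. The stretch was positioned on its peaks and the tiles were not, which favours its rank.

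**Figure D4:**
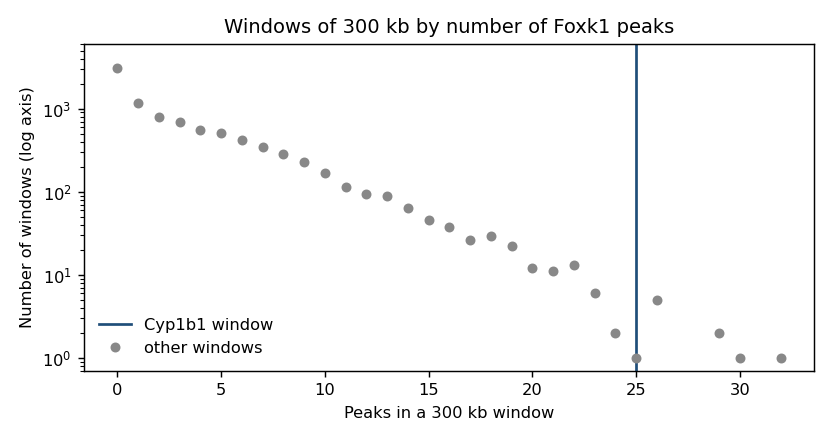
Number of 300 kb windows (log vertical axis) by the number of Foxk1 peaks they hold (horizontal axis); points are windows tiled over chromosomes 1 to 19 and X, and the vertical line is the Cyp1b1 stretch. The line stands at 25 peaks, with 9 windows beyond it, the highest at 32.

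Against the 10 other windows with the most peaks, the Cyp1b1 stretch was low in summed signal and its peaks stood further apart than in most. Its summed signal of 617 was below that of 9 of the 10, which ranged from 528 to 1143. It held 1 peak with a signal value of 50 or more, against 1 to 9 in the others. The median distance from a peak to its nearest summit was 2941 bp, longer than in 9 of the 10, which ranged from 976 to 3070 bp. The share of peaks with another summit within 2000 bp was 32.0%, against 30% to 72.4% in the others. Its median signal of 21.6 lay inside their range of 15.3 to 23.02. The window with the most peaks, chromosome 19 from 5700001 to 6000000, held 32 with a median of 18.3, and 22 of them had a neighbour within 2000 bp. The window on chromosome 11 from 86400001 to 86700000 held 26 peaks with a highest value of 174. As the densest 100 kb within each, the stretch had 18 peaks, the same number as the window on chromosome 11, and the window on chromosome 19 had 23.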

How the data were processed

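Alignment was to mm9 with Bowtie, per the submitters' processing notes. No source used here names the peak caller, its settings or any pooling of libraries. Deposited by the authors was 1 list of peaks, Foxk1 versus input per the file headers, with a signal value per peak (a score of no stated scale) and a q-value on a linear scale. Samples were grouped by antibody, and input by title. Depth is unknown, and no interval for counting error was computed from reads. Start and end are 1-based on mm9, and the summit is the deposited start plus offset, plus 1.

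The members, windows and alternatives were chosen with earlier results of these data known. Named items were all members, the peaks next to the limits, the highest peak on each side, and the nearest RefSeq neighbours of Cyp1b1. Densities were peaks per Mb. Ranks were by signal value, highest first. Alternatives kept the peaks whose signal value reached the list median or with a q-value of at most 0.001, merged summits under 2000 bp or peaks less than 100 bp apart, and changed the surroundings, the tiles and the motif letters. The code that counts peaks in windows was checked on made-up positions with known counts, which is no test of the counts reported. Promoters were RefSeq's, GRCm38.p6. A genome sequence of mm9 was not used here, so no peak sequence is printed. Computation used Python 3.11.15, numpy 2.4.6, pandas 2.3.3, scipy 1.17.1 and matplotlib 3.10.9.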

Additional observations from a re-analysis of the deposited data

How the results depend on the processing

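The number of peaks in the Cyp1b1 stretch stayed within 1.5 times of 25 under the 4 alternatives run for it, at 17 to 25. Its density ratio to the surroundings lay between 2.96 and 3.43 in 5 of 6 alternatives and was 6.34 against the rest of chromosome 17. The difference in median signal from the surrounding 2 Mb, 1.13, was -5.04 among peaks at or above the list median, -4.59 at a q-value of at most 0.001, 3.45 with 2 Mb on each side and 3.60 against the rest of chromosome 17. By construction both limits remove weak peaks, and 32.0% of the stretch and 40.0% of the surroundings lay under the list median. The rank of 10 by peak number was 5 among peaks at or above the median, 6 under the q-value limit, 3 with summits under 2000 bp merged and 30 by summed signal. It was 7, 8 and 10 under the other 3 alternatives. The motif count in the promoter was 0 for TAAACA and 1 for AAACA. No paired analysis was possible because replicates have no values of their own in the single list, so none could be left out either. At unknown depth, intervals without peaks had none past the authors' threshold, and weaker binding there is not measured.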
